A study of Sus scrofa with 15 samples.

Results

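The fast type II fibre proteins are the contractile and calcium-handling proteins of fast-twitch muscle fibres. The list examined here has 10 genes: the myosin heavy chains MYH1, MYH2 and MYH4, the light chains MYL1 and MYLPF, the troponins TNNC2, TNNI2 and TNNT3, the calcium buffer PVALB and the Z-disc protein ACTN3. Their probes were found by the gene symbol in the scanner files and had to be well above background on at least 7 of 15 arrays. The description was searched for MYH4 alone, and the 2 probes it gave are reported apart. The symbols gave 49 probes, and all 49 were well above background on 15 of 15 arrays. They are 49 of 31989 tested probes and represent 9 of the 10 genes, among 4626 named genes tested. No probe carried the name ACTN3, so that gene was not analysed here.

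The RNA was that of Longissimus, a back muscle, taken from pigs weighing 20 kg and fed ad libitum, from lines that differ in residual feed intake (RFI), the feed eaten beyond that predicted for maintenance and growth. The low_RFI line, labelled RFIneg, had 7 pigs and the high_RFI line, labelled RFIpl, had 8, each pig on its own 1-colour array, with no further treatment named. The array files carry numbers in 2 runs, 55 to 62 (3 low_RFI and 4 high_RFI pigs) and 1 to 8 (4 low_RFI and 4 high_RFI pigs); what the numbers stand for is not given in the sources used here. Every one of the 4 slides held pigs of both lines and both runs. The samples were whole muscle, so fewer fibres of a type and less RNA per fibre cannot be told apart.

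A myosin heavy chain is the motor of the thick filament, and the isoform a fibre makes sets how fast it shortens. MYH2 encodes the heavy chain of oxidative type IIa fibres, MYH1 that of type IIx fibres and MYH4 that of type IIb fibres, the fastest and most glycolytic. MYL1 and MYLPF are the essential and regulatory light chains bound to the fast heavy chains. TNNC2, TNNI2 and TNNT3 form the fast troponin complex, which binds calcium, holds back the myosin and actin interaction at rest, and anchors the complex to tropomyosin. PVALB, parvalbumin, takes up calcium as a fast fibre relaxes. Longissimus is a mainly fast, glycolytic muscle in the pig.

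In the RefSeq gene table of the Sscrofa11.1 assembly MYH4, MYH1 and MYH2 follow each other with no gene between them. Their sequences are alike, so the probes decide which isoform a level describes. Of 18 probes named MYH1, MYH2 or MYH4, 13 pointed to 1 gene in the RefSeq table and 5 to several. The probes below are shown because the heavy chain readings are compared across them. They are taken from the array files, 5′ to 3′, and capitals mark the longest run of bases that each shares with a probe named for another heavy chain. The MYH2 level rests on a further probe, A_72_P440201, which has a stop codon in every reading frame and is not shown; its place in the transcript was not determined here.
MYH2 probe A_72_P694038: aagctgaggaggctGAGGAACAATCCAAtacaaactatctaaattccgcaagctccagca
MYH1/MYH2 probe A_72_P590054: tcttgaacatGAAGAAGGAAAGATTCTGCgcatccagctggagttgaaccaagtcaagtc
MYH1/MYH2 probe A_72_P600848: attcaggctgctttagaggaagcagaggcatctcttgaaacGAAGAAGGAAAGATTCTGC
MYH1 probe A_72_P619550: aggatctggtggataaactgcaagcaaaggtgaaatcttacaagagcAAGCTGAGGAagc
MYH1 probe A_72_P608642: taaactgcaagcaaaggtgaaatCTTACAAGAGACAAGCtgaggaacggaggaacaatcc
MYH4 probe A_72_P638603: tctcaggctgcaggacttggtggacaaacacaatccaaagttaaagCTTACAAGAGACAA
MYH4 probe A_72_P441939: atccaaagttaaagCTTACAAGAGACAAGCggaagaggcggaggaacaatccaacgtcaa

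The longest such run was 19 bases, between the pair annotated to MYH1 and MYH2, and 16 bases between the MYH1 probe A_72_P608642 and the MYH4 probe A_72_P441939. The MYH2 probe A_72_P694038 shared 14 bases with that MYH4 probe. Probes were compared only with each other, so how far each matches the transcript of another heavy chain was not determined here. Several probes of 1 gene also overlapped each other, by up to 46 bases for MYH1 and 44 bases for MYH4, and are not independent readings. Each gene is represented below by its single-gene probe of highest mean level. A level is log2 of the processed signal minus the 75th percentile of its array, and a difference of 1 on this scale is a 2-fold difference in signal.

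MYH2 varied between pigs more than any other fast fibre gene. Its level ran from 5.51 to 8.27, a 6.79-fold range in signal, with an SD of 0.82 over 15 pigs. Only 4.35% of the 4626 genes had a larger SD. In array numbers 55 to 62 the low_RFI pigs had 6.92, 7.65 and 7.50, and the high_RFI pigs had 5.51, 7.56, 7.19 and 6.33. In array numbers 1 to 8 the low_RFI pigs had 6.21, 8.16, 7.84 and 7.82, and the high_RFI pigs had 8.03, 8.27, 7.86 and 8.12. The lowest values thus came from a high_RFI pig of the 55 to 62 run and a low_RFI pig of the 1 to 8 run, and the 4 high_RFI pigs numbered 1 to 8 lay close together, between 7.86 and 8.27.

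The lines overlapped for MYH2. Its level averaged 7.44 ± 0.67 in low_RFI (SD, n = 7) and 7.36 ± 0.98 in high_RFI (SD, n = 8), a difference of 0.085 ± 0.40 (SE) with a 95% interval of -0.77 to 0.94. The limma adjusted p over all genes was 0.999. Within array numbers 55 to 62 low_RFI minus high_RFI was 0.71, and within 1 to 8 it was -0.56. The test of that change of sign gave 1.27 ± 0.65 (SE) with a limma adjusted p of 0.899 and was not called.

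MYH2 averaged 6.95 ± 0.78 in array numbers 55 to 62 (SD, n = 7) and 7.79 ± 0.66 in 1 to 8 (SD, n = 8). With line as a term the difference was -0.84 ± 0.35 (SE), 1.79-fold lower in 55 to 62, and was not called (limma adjusted p = 0.176). In 50 of 56 pairs of pigs the one from 55 to 62 had the lower level. Within the 4 slides the difference was -0.49, -1.73, -0.93 and -0.93; each slide had 2 pigs of each run, except the second, whose 1 pig of 55 to 62 was high_RFI replicate 5, the pig of lowest MYH2. Without low_RFI replicate 1, the low pig of the 1 to 8 run, it was -1.07 and was called (limma adjusted p = 0.0433; the 28 alternatives gave 0.0433 to 0.282).

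The other probes annotated to MYH2 had lower means in 55 to 62 by differing amounts. The second single-gene MYH2 probe, A_72_P694038, correlated with the first at r = 0.968 over 15 pigs and gave -0.61 ± 0.28 (SE) between the runs. The probes annotated to MYH1 and MYH2 together gave -0.39 ± 0.18 and -0.26 ± 0.13 (SE), and correlated with the MYH2 level at 0.614 and 0.638. The 2 probes annotated to all 3 heavy chains gave -0.016 and -0.12, with correlations of 0.291 and 0.308. The 3 MYH1 probes gave -0.14 to -0.085, and the 8 MYH4 probes -0.19 to 0.040. None of these heavy chain probes was called over all probes, where 2.28% of 31989 were called. These probes share the 15 arrays, and the correlations are descriptions.

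**Figure D1:**
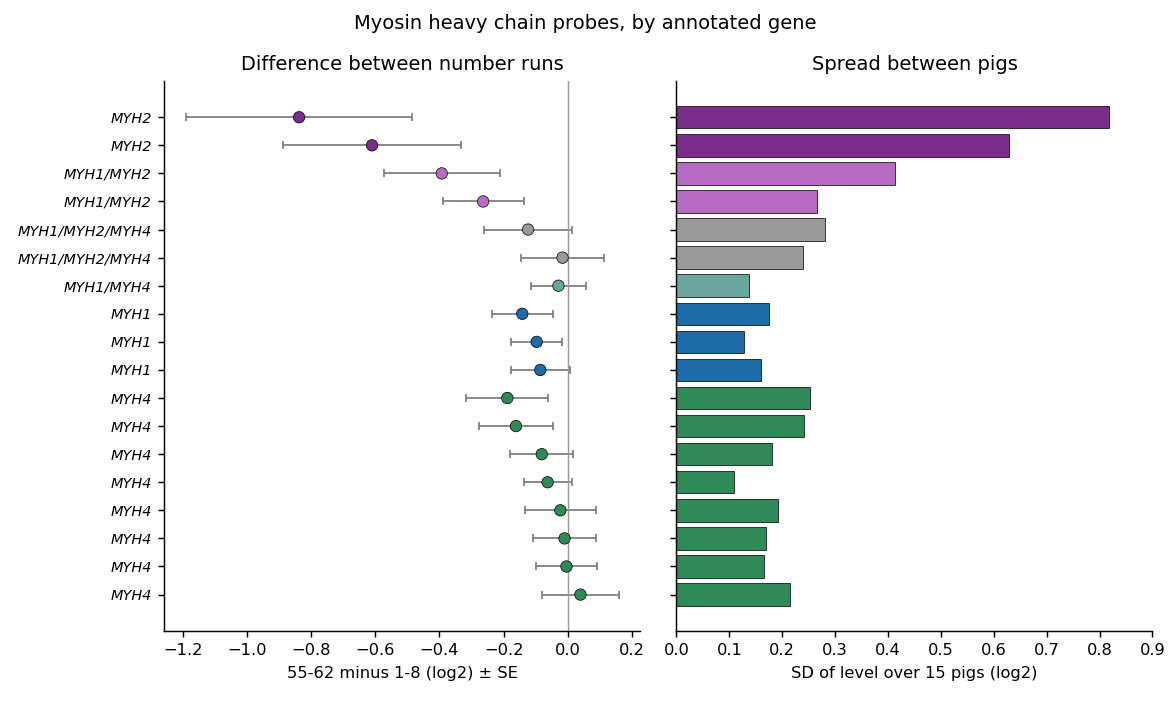
Myosin heavy chain probes, each row 1 probe labelled with the genes it is annotated to. The left panel gives the level in array numbers 55 to 62 minus 1 to 8 (log2, points with SE bars) and the right panel the SD of the level over 15 pigs (log2); the MYH2 probes have the lowest differences, -0.84 and -0.61, and the widest spread, 0.82 and 0.63.

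MYH1 and MYH4 varied little. MYH1 had a level from 9.12 through a median of 9.48 to 9.61 in low_RFI, and from 9.23 through 9.51 to 9.60 in high_RFI. It averaged 9.39 ± 0.19 in low_RFI (SD, n = 7) and 9.46 ± 0.13 in high_RFI (SD, n = 8), and the difference of -0.078 ± 0.091 (SE) was within the spread between pigs (limma adjusted p = 0.953). MYH1 was the single member whose level was lower in low_RFI. MYH4 had a level from 9.44 through a median of 9.49 to 9.72 in low_RFI, and from 9.17 through 9.40 to 9.72 in high_RFI. It averaged 9.55 ± 0.12 in low_RFI and 9.44 ± 0.19 in high_RFI (SD, n = 7 and 8), a difference of 0.12 ± 0.090 (SE), with limma adjusted p = 0.889 and the low_RFI pig higher in 40 of 56 pairs. Between array numbers 55 to 62 and 1 to 8 MYH1 differed by -0.085 ± 0.090 and MYH4 by -0.0038 ± 0.092 (SE). The signals of their probes were 209435 to 301731 for MYH1 and 209536 to 342160 for MYH4, and 0 spots of any array were saturated.

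Of the 8 MYH4 probes, 7 gave a higher mean in low_RFI, with differences from -0.086 to 0.20, where 54.7% of all genes were higher. In 55 to 62, 7 gave a lower mean, where 56.9% of all tested probes were lower. Several of these 8 probes overlap and are not independent readings. A further 2 probes are described as myosin heavy chain 4 in the array files but matched no gene of the RefSeq table. They gave -0.34 and -0.14 between the runs, and the first was called over all probes (limma adjusted p = 0.0469). They differed between lines by 0.11 and -0.13, neither called.

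**Figure D2:**
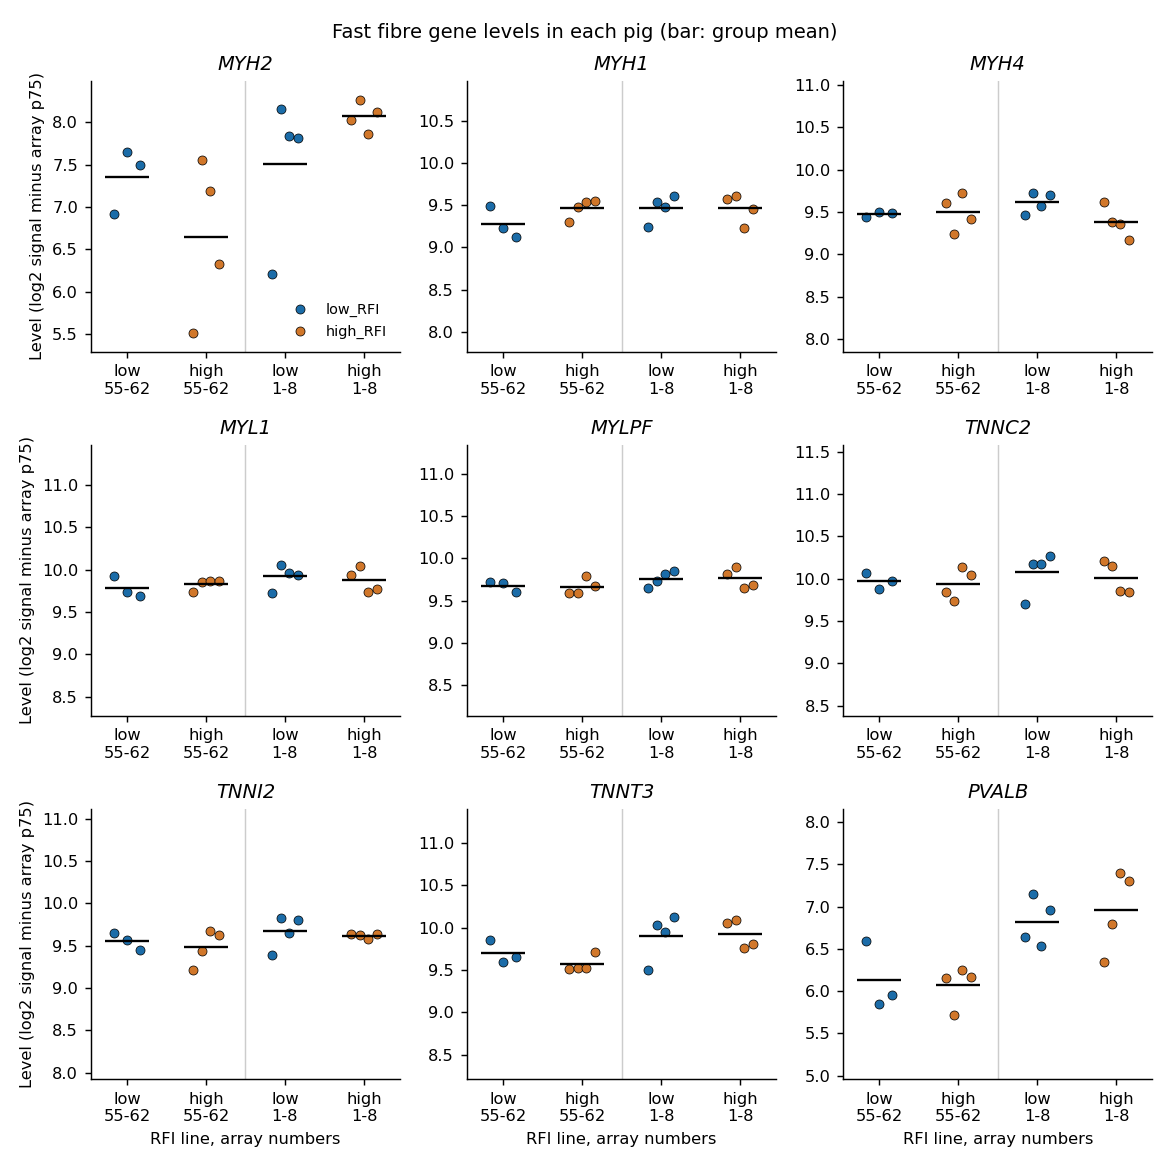
Level of each measured fast fibre gene in every pig (log2 signal minus the 75th percentile of the array, each panel 3.2 log2 units high), by line and array number run. Points are pigs and bars are group means; MYH2 (5.51 to 8.27) and PVALB (5.72 to 7.40) spread widely and the other 7 genes do not.

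The light chains were nearly flat across pigs. MYL1 ran from 9.69 to 10.06 in low_RFI, with a median of 9.93, and from 9.74 to 10.04 in high_RFI, with a median of 9.86. MYLPF ran from 9.61 to 9.85 in low_RFI, with a median of 9.72, and from 9.59 to 9.90 in high_RFI, with a median of 9.68. The lines covered each other for both genes. MYL1 differed by 0.010 ± 0.076 (SE) and MYLPF by 0.013 ± 0.068 (SE), each with a limma adjusted p of 0.999, and 96.2% and 99.2% of all genes had a larger SD over the 15 pigs than MYL1 and MYLPF. In 55 to 62 MYL1 was lower by a difference of -0.086 ± 0.074 and MYLPF by -0.092 ± 0.065 (SE), neither called. All 15 MYL1 probes and 4 of 4 MYLPF probes had a lower mean in 55 to 62.

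The probes of MYLPF and TNNC2 include 1 each that reads the strand opposite to another probe of the same gene. The pairs are shown because the gene name alone does not say which strand a level describes; capitals mark the bases that 1 probe shares with the reverse complement of the other.
MYLPF probe A_72_P504419: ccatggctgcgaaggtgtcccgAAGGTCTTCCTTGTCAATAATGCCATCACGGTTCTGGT
MYLPF probe A_72_P035721: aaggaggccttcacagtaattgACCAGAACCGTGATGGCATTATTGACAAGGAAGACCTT
TNNC2 probe A_72_P070111: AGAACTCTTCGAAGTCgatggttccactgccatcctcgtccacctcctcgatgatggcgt
TNNC2 probe A_72_P611718: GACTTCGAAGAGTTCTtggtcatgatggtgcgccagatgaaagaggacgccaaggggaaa

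The shared run was 38 bases in MYLPF and 16 bases in TNNC2. A_72_P504419 had a mean level of 2.15 ± 0.17 (SD, n = 15) and A_72_P035721 one of 9.37 ± 0.12. A_72_P070111 had a mean level of 2.37 ± 0.16 and A_72_P611718 one of 9.67 ± 0.11 (SD, n = 15). Over the 15 pigs A_72_P504419 followed A_72_P035721 at r = 0.116 and A_72_P070111 followed A_72_P611718 at r = 0.013. Neither dim probe represents its gene in the gene comparisons; both are in the counts of probes and in the mean of a gene's probes.

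TNNC2, the calcium-binding subunit, ran from 9.70 to 10.27 in low_RFI (median 10.07) and from 9.73 to 10.21 in high_RFI (median 9.95). TNNI2, the inhibitory subunit, ran from 9.39 to 9.83 in low_RFI (median 9.65) and from 9.22 to 9.67 in high_RFI (median 9.63). TNNT3, which binds tropomyosin, ran from 9.49 to 10.12 in low_RFI (median 9.86) and from 9.51 to 10.09 in high_RFI (median 9.73). All 3 had overlapping lines and slightly higher means in low_RFI. The differences were 0.058 ± 0.10 for TNNC2, 0.067 ± 0.090 for TNNI2 and 0.068 ± 0.12 for TNNT3 (SE), with limma adjusted p from 0.971 to 0.984.

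Between the runs TNNT3 differed most among the troponins. It averaged 9.62 ± 0.13 in array numbers 55 to 62 (SD, n = 7) and 9.91 ± 0.21 in 1 to 8 (SD, n = 8), a difference of -0.29 ± 0.099 (SE), 1.22-fold lower in 55 to 62. It was not called (limma adjusted p = 0.110). The 4 TNNT3 probes differed by -0.29 to -0.18, and 56.9% of all tested probes were lower. Within the 4 slides the difference was -0.48, -0.28, -0.19 and -0.26, the second with 1 pig of 55 to 62. These probes and slides describe the same pigs and are not further replicates. Without low_RFI replicate 1 the TNNT3 difference was -0.35 and was called (limma adjusted p = 0.0281). The 28 alternatives gave adjusted p of 0.0281 to 0.387. TNNC2 differed by -0.088 ± 0.10 and TNNI2 by -0.12 ± 0.086 (SE), neither called.

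PVALB fell in array numbers 55 to 62 and was not called between lines. In 55 to 62 the low_RFI pigs had levels of 6.59, 5.85 and 5.95, and the high_RFI pigs had 6.15, 5.72, 6.25 and 6.17. In 1 to 8 the low_RFI pigs had 6.64, 7.15, 6.53 and 6.96, and the high_RFI pigs had 6.35, 6.79, 7.40 and 7.30. Of the 7 pigs numbered 55 to 62, 6 lay below every pig numbered 1 to 8, and low_RFI replicate 5, at 6.59, was the exception.

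PVALB averaged 6.10 ± 0.29 in 55 to 62 (SD, n = 7) and 6.89 ± 0.38 in 1 to 8 (SD, n = 8). The difference was -0.79 ± 0.17 (SE), 1.73-fold lower in 55 to 62, with a 95% interval of -1.16 to -0.43 and a limma adjusted p of 0.0254. It was -0.69 within low_RFI and -0.89 within high_RFI, and -0.96, -0.56, -0.50 and -1.12 within the 4 slides, the second with 1 pig of 55 to 62. PVALB was called in 28 of 28 alternatives, at adjusted p from 0.0153 to 0.0495. By line it averaged 6.52 ± 0.48 in low_RFI and 6.52 ± 0.59 in high_RFI (SD, n = 7 and 8), a difference of 0.0084 ± 0.26 (SE). The gene rests on 1 probe, labelled PVALB1 in the array files and matched to PVALB through its RefSeq accession and synonym.

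**Figure D3:**
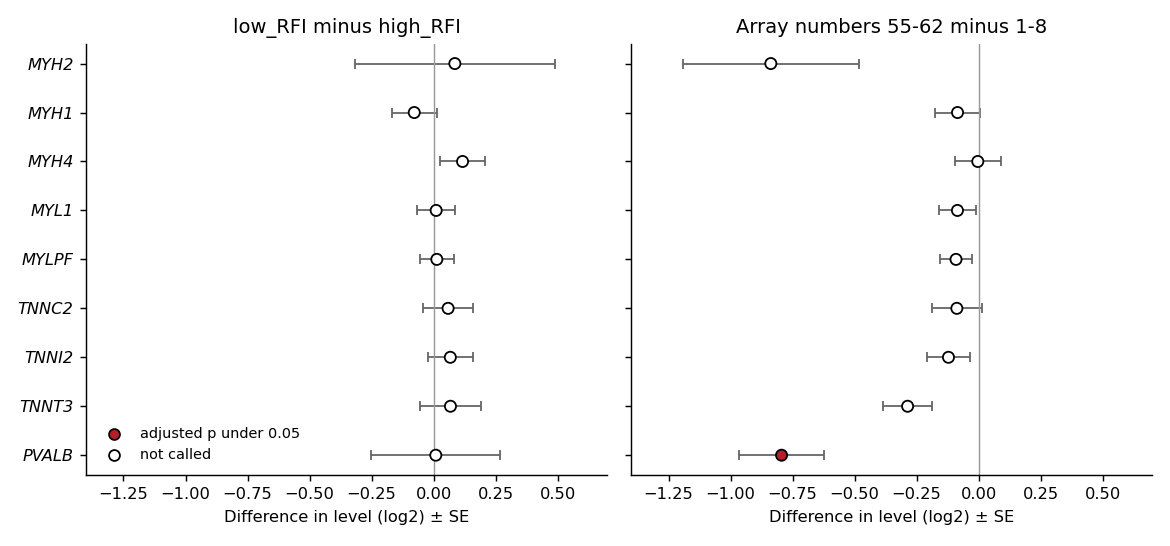
Difference in level (log2, points with SE bars) for each measured fast fibre gene, low_RFI minus high_RFI on the left and array numbers 55 to 62 minus 1 to 8 on the right. A filled point marks an adjusted p under 0.05, which PVALB alone reaches, at -0.79 between the runs.

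Between lines limma called 0 of 9 fast fibre genes, and 0 were at an unadjusted p under 0.05, where 0.0216% and 7.11% of all 4626 genes were. Their differences ran from -0.078 to 0.12 with a median of 0.058, and 8 of 9 were higher in low_RFI (7 of 9 with quantile normalization), where 54.7% of all genes were higher and the median was 0.015. Leaving out 1 pig gave 4 to 8 of 9 higher and a median of -0.0042 to 0.10. Without high_RFI replicate 5 it was 4 of 9, without low_RFI replicate 2 or 4 it was 5 of 9. Between the runs limma called 1 of 9, PVALB, and 3 were at an unadjusted p under 0.05, where 3.59% of all genes were called (1.41% as lower and 2.18% as higher) and 22.6% were at that p. All 9 had a lower mean in 55 to 62, with a median of -0.092, and 58.6% of all genes were lower, with a median of -0.045. With quantile normalization 5 of 9 were lower, near the 56.1% of all genes that were lower there. With normexp it was 8 of 9, where 64.8% of all genes were lower, and leaving out 1 pig gave 8 or 9. Over probes, 48 of 49 were lower, where 56.9% of all tested probes were. The 49 probes read 9 genes on the same arrays and some overlap, so they are not independent and the count adds no test. The interaction of line and run was called for 0 of 9 members and 0 genes by limma, with 5.60% of genes at an unadjusted p under 0.05.

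The runs of array numbers differed in other ways. The share of probes well above background averaged 74.7% in 55 to 62 and 70.0% in 1 to 8. Leukocyte markers had higher means in 55 to 62 in 3 of 3 measured of 6 listed, where 41.4% of all genes were higher. Their median difference was 0.99, and their mean level ran from -1.38 to 0.46 in 55 to 62 and from -2.15 to -1.11 in 1 to 8. CD74, the invariant chain of class II antigen presentation, rose by 0.99 ± 0.18 (SE, limma adjusted p = 0.0127), while PTPRC, CD68 and CSF1R had no tested probe. Fibroblast markers were lower in 4 of 4 measured of 6, where 58.6% of all genes were lower, with a median of -0.26 and 0 called. Adipocyte markers were higher in 4 of 7 and endothelial markers in 3 of 6, where 41.4% of all genes were higher, with 0 called. Smooth muscle had 2 markers measured, both lower, and erythrocytes 0 of 3. CD74 was called in 27 of 27 alternatives, and 3.59% of all genes were called between the runs in the main fit. The part of these values in the PVALB result was not tested.

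Other genes of fast fibres mostly had the same sign between the runs. Of 14 listed, 8 were measured and 7 were lower in 55 to 62, where 58.6% of all genes were lower, with a median of -0.15 and 0 called. With normexp 5 of 8 were lower, near the 64.8% of all genes that were lower there. ATP2A1, the calcium pump of the fast fibre reticulum, differed by -0.39 ± 0.13 (SE, limma adjusted p = 0.101), the Z-disc protein MYOZ1 by -0.15, and the glycolytic enzymes PGAM2 and ENO3 by -0.19 and -0.16. Between lines 5 of 8 were higher in low_RFI, where 54.7% of all genes were higher, the median was 0.00068, and 0 were called. With quantile normalization 1 of 8 was higher. The sarcomere proteins that all fibres share were lower in 55 to 62 in 12 of 13 measured of 20 listed, where 58.6% of all genes were lower, with a median of -0.13 and 0 called (11 of 13 with normexp). TPM2, a tropomyosin, differed by -0.48 ± 0.15, ACTN2, a Z-disc actinin, by -0.44 ± 0.15, and DES, the intermediate filament desmin, by -0.22 ± 0.073 (SE), with limma adjusted p from 0.0866 to 0.0976.

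Slow type I fibre proteins mostly had the opposite sign. Of 13 measured of 15 listed, 11 were higher in 55 to 62, where 41.4% of all genes were higher. The list median was 0.46 and 0 were called, where 3.59% of all genes were called. Under median scaling and in the authors' deposited values 10 of 13 were higher. TNNI1, the slow inhibitory troponin, differed by 0.86 ± 0.32, CASQ2, a calsequestrin, by 0.63 ± 0.23, and MYL2, the slow regulatory light chain, by 0.63 ± 0.24 (SE), with limma adjusted p from 0.125 to 0.146. Between lines 12 of 13 were lower in low_RFI (11 of 13 with normexp), where 45.3% of all genes were lower. The list median was -0.24 and 0 were called, where 0.0216% of all genes were called. MYL6B, a light chain of slow fibres, had the smallest p, with -0.98 ± 0.48 (SE, limma adjusted p = 0.724). The developmental and specialised myosins had no tested probe under 9 of 9 names.

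**Figure D4:**
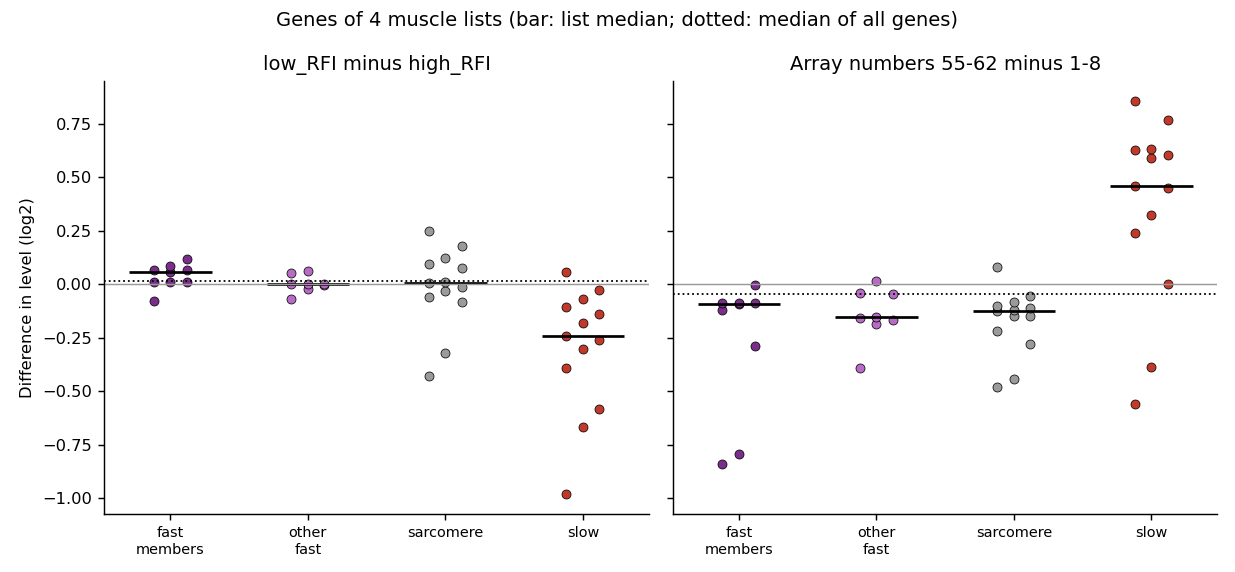
Differences in level (log2) of the genes of 4 muscle lists, low_RFI minus high_RFI on the left and array numbers 55 to 62 minus 1 to 8 on the right. Points are genes, bars list medians and the dotted line the median of all 4626 genes; the fast members lie at a median of 0.058 between lines and -0.092 between runs, and the slow list at -0.24 and 0.46.

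Among regulators of fibre type 12 of 18 were measured. MEF2C, a transcription factor of muscle genes, fell in 55 to 62, with a level of 3.24 ± 0.25 (SD, n = 7) there and 3.86 ± 0.28 in 1 to 8 (SD, n = 8), a difference of -0.61 ± 0.12 (SE, limma adjusted p = 0.0162), called in 27 of 27 alternatives. TEAD1, which binds muscle gene promoters, differed by -0.31 ± 0.10, EYA4 by -0.32 ± 0.12, and MSTN, the growth inhibitor myostatin, by -0.43 ± 0.17 (SE), none called. In all 8 of 12 were lower in 55 to 62 and 1 was called, where 58.6% of all genes were lower and 3.59% were called. Between lines 0 were called. MYOD1, a myogenic factor tied to fast fibres in rodents, differed by -0.54 ± 0.17 (SE, limma adjusted p = 0.472), PROX1 by -0.38 ± 0.17, PPARGC1A, a coactivator of mitochondrial genes, by -0.40 ± 0.18, and PRKAG3, a muscle AMPK subunit, by 0.71 ± 0.38 (SE).

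Over 15 pigs the 36 pairs among the 9 measured genes had Pearson r from -0.082, for MYH2 and MYH4, to 0.861, for MYH1 and MYL1; MYLPF and TNNC2 had 0.819 and TNNC2 and TNNT3 0.776. These are descriptions. A test was made for 10 chosen pairs, 7 among the fast genes and 3 of a fast heavy chain with the slow MYH7. Of these, 3 passed Benjamini-Hochberg adjustment over the 10. MYL1 and MYLPF, the partners on the myosin neck, had Pearson r = 0.744 (permutation p = 0.00208, adjusted 0.00693) and Spearman rho = 0.789 (p = 0.00089, adjusted 0.00445), with r = 0.476 in 55 to 62, 0.805 in 1 to 8 and 0.746 without the 2 pigs farthest from the median. TNNC2 and TNNI2 had r = 0.744 (permutation p = 0.00091, adjusted 0.00495) and rho = 0.796 (p = 0.00072, adjusted 0.00445), with r = 0.702 in 55 to 62, 0.792 in 1 to 8 and 0.673 without 2 pigs. TNNI2 and TNNT3 had r = 0.734 (permutation p = 0.00099, adjusted 0.00495) and rho = 0.711 (p = 0.00374, adjusted 0.0125), with r = 0.519 in 55 to 62, 0.830 in 1 to 8 and 0.664 without 2 pigs. With quantile normalization 0 of the 10 pairs passed, so these relations depend on how the arrays are scaled. There MYL1 and MYLPF changed sign, to r = -0.462. TNNC2 and TNNI2 had r = 0.355, and TNNI2 and TNNT3 r = 0.410.

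The other 7 pairs did not pass, with adjusted permutation p of 0.526 and above for r and 0.558 and above for rho. Among the fast heavy chains MYH4 and MYH1 had r = 0.200 and rho = 0.300, MYH4 and MYH2 r = -0.082 and rho = -0.054, and MYH1 and MYH2 r = 0.311 and rho = 0.329. With MYH7, the slow heavy chain, MYH4 had r = -0.034 and rho = -0.082, MYH1 r = 0.340 and rho = 0.175, and MYH2 r = -0.014 and rho = -0.082. MYH4 with PVALB had r = -0.048 and rho = -0.075. The MYH1 and MYH2 relation was -0.18 in 55 to 62 and 0.66 in 1 to 8, and 0.484 without the 2 pigs farthest from the median of MYH1. That of MYH1 and MYH7 was 0.470 in 55 to 62, 0.628 in 1 to 8 and 0.637 without 2 pigs.

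The genes outside the list whose levels were most like each heavy chain over the 15 pigs are given as a description, since the highest values were chosen among all genes. For MYH1 they were RPLP1, a ribosomal protein (r = 0.909), COX2 (r = 0.864), the skeletal actin ACTA1 (r = 0.780), ELANE (r = 0.775) and SP7 (r = 0.751). For MYH2 they were TRPM7, TBRG4, PIH1D3, KCTD20 and DUOXA2, with r from 0.814 to 0.839. For MYH4 they were CASP10, RASGRF1, CCDC18, CDS2 and RPS21, with r from 0.675 to 0.730. RASGRF1 passed the background criterion on 10 of 15 arrays and the other 14 genes on 15. Within the runs of array numbers some of these correlations differed from those over 15 pigs. KCTD20 had r = 0.824 with MYH2 over 15 pigs, 0.976 in 55 to 62 and 0.942 in 1 to 8. RPS21 had r = 0.675 with MYH4 over 15 pigs, 0.284 in 55 to 62 and 0.822 in 1 to 8. The part of the runs in these values was not tested.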

How the data were processed

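Each pig's RNA, 150 ng per the labels, was amplified and labelled with Cy3. Scanner signals are intensity values deposited by the authors, per the file headers from Feature Extraction 10.7.3.1 (protocol GE1_107_Sep09), with its background subtraction and no scaling between arrays. Other columns, per the file headers, hold flags for non-uniformity, saturation and signal above background. The deposited log2 table, for which the submitters' processing notes name R 2.10.0, was found on the files to be log2 signal minus each array's median; it served as an alternative.

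Control and non-uniform spots were left out, spots of a probe were averaged, and probes well above background on at least 7 of 15 arrays with 4 values per line were kept, 31989 of 43603. On an array 61.7% to 79.5% of probes were well above background, and the number of pigs limits precision. Names came from accessions and symbols matched to RefSeq genes of Sscrofa11.1; 12055 probes had 1 symbol. Lines were compared as low_RFI minus high_RFI and runs as 55 to 62 minus 1 to 8 with line as a term, by limma 3.58.1 in R 4.3.3, two-sided, with Benjamini-Hochberg adjustment over 4626 genes and calls at 0.05. The fit was tested on simulated data. Pairs used 100000 permutations (scipy 1.17.1). Each array is 1 pig; whether pigs share litters is not given in the sources used here. The labels do not say whether replicate numbers pair pigs. Deviations of same-numbered pigs correlated at -0.040 to 0.310, which can neither show nor exclude a pairing.

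The text names all members, up to 4 genes of smallest p per other list and comparison, and the 5 genes most like each heavy chain; the probe pairs on opposite strands were picked after their values were seen. The members and lists were chosen with earlier results of these data known. Alternatives covered background correction (normexp, offset 50), scaling, filters, slide, runs, the model, probes and leaving out each array; those for pairs were chosen after seeing the data. The result of 1 marker list is not reported here.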

Additional observations from a re-analysis of the deposited data

Results flagged for a closer look

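Among the 8 pigs of both lines numbered 1 to 8, 1 value of MYH2 lay far from the rest. Low_RFI replicate 1 had a level of 6.21, and the nearest of the other pigs of that run had 7.82, a gap of 0.781 of the run's range. It was the 1 value that stood apart among 36 groups of 4 to 8 pigs examined. Chance flags about 1 in 20 groups, so 1 flag among 36 is no more than chance gives.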

How the results depend on the processing

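Over 29 alternatives for lines and 28 for runs, 0 fast fibre genes were called between lines, PVALB was called between runs in each, and 0 were called for line by run in 27. Leaving out 1 pig at a time gave 1 to 3 members called between runs; the 3, without low_RFI replicate 1, were PVALB, MYH2 and TNNT3. Of all genes, 1 was called between lines, and 0 to 3 when 1 pig was left out. It was 0 with normexp, median scaling, the deposited table, no filter on dim probes, slide or run as a fixed block, the replicate block and all probes, and 2 with quantile scaling, array weights and the mean of probes. Of all genes, 166 were called between runs, and 77 to 228 when 1 pig was left out. It was 70 with normexp, 298 with slide as a fixed block, 293 as a random block, 329 with array weights and 728 over all probes. Small line differences changed sign: MYH2 gave -0.013 with slide as a fixed block, -0.014 with the mean of probes and -0.062 with the replicate block, and PVALB -0.033 with quantile scaling, -0.048 with run as a block and -0.041 with the replicate block. Leaving out 1 pig gave line differences of -0.18 to 0.29 for MYH2, -0.023 to 0.038 for MYL1, -0.0075 to 0.039 for MYLPF and -0.11 to 0.13 for PVALB, and a run difference of -0.051 to 0.028 for MYH4. Between runs MYH4 gave 0.010 with normexp, and with quantile scaling MYH4 gave 0.079, MYL1 0.012, MYLPF 0.0048 and TNNC2 0.0095. For pairs, 0 passed with quantile scaling and 3 otherwise. The replicate block used the labels' numbers, which the labels do not describe as pairs. For all of these the cause was not tested. MYH1, MYH4, TNNC2, TNNI2 and TNNT3 kept the sign of their line difference in all 29 alternatives.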
